A study of Mus musculus with 8 samples.

Results

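The ionotropic glutamate receptors of the AMPA and kainate classes were examined in total RNA from mouse tissue measured on 8 Affymetrix whole-genome mouse arrays, 4 labelled Exp and 4 labelled Ctrl. Members were the probe sets whose platform annotation names one of Gria1 to Gria4 or Grik1 to Grik5 and no other gene. This gave 18 of 45037 probe sets other than controls, 10 for the 4 AMPA genes and 8 for the 5 kainate genes. Of these, 12 had a mean signal above the limit used for testing, a signal of about 333 and the 40th percentile of all probe sets, and 6 lay below it. The labels state no treatment, genotype, strain, age or sex for Exp or for Ctrl, and do not say whether an array holds 1 animal or a pool. The tissue is given as trigeminal ganglion, which holds the sensory neurons of the face and jaw, by one label, whereas others name brain with adrenal medulla. All 17 sensory neuron marker genes measured lay above the limit, against 5 of 12 central neuron markers and 9 of 13 chromaffin and sympathetic markers.

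AMPA and kainate receptors are cation channels opened by glutamate, built of subunits that assemble within their own class. The AMPA subunits come from Gria1 to Gria4. The Gria2 subunit limits calcium entry once its transcript has been edited at one codon of the pore region by the adenosine deaminase made from Adarb1. Among kainate subunits, Grik1, Grik2 and Grik3 form channels by themselves, whereas Grik4 and Grik5 need one of these as a partner. In rodent sensory ganglia kainate receptors with the Grik1 subunit are known from small nociceptive neurons.

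No member passed the test between Exp and Ctrl. Of the 12 tested member probe sets, 0 reached a 5% false discovery rate in limma (all adjusted p = 0.999), where 0.00370% of all 27022 tested probe sets did. At an unadjusted p below 0.05 the count was also 0, against 4.69% of all tested probe sets (2.18% higher and 2.50% lower in Exp), and in 0 of 12 did the Exp values lie wholly on one side of the Ctrl values, against 2.34%. The difference was negative, lower in Exp, in 10 of the 12, against 51.6% of all tested probe sets, and its median was -0.14 log2 units, against -0.0058 over all. Probe sets of one gene and arrays shared by all genes make these 12 differences dependent on each other. For 11 of the 12 the 95% confidence interval excluded a doubling or halving, as it did for 93.5% of all tested probe sets, and Grik3 was the exception. Nothing in the labels says that arrays came from separate animals, so the p-values rest on array-to-array spread that may be technical. Fewer cells of a type and less RNA per cell cannot be told apart in such samples.

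**Figure D1:**
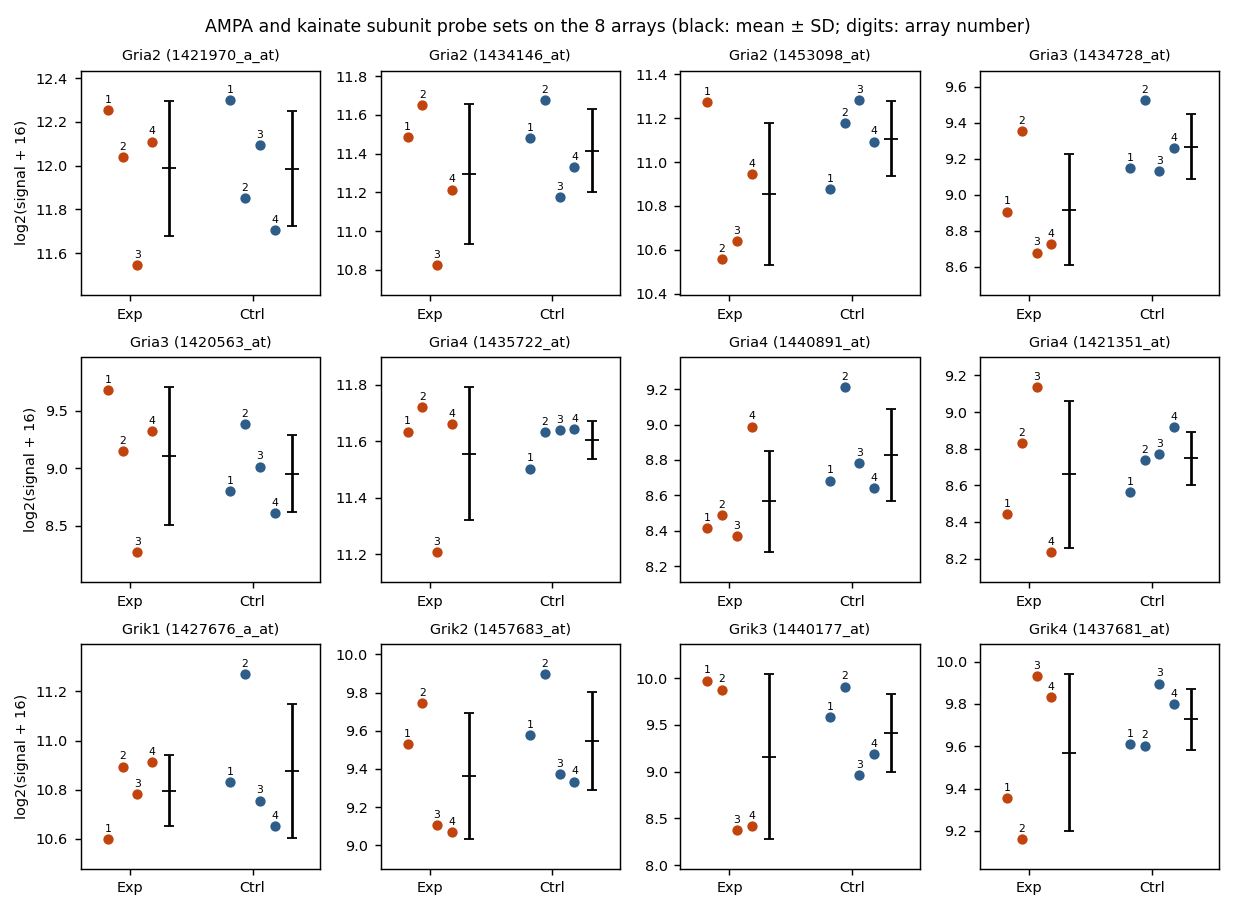
Level of each of the 12 tested probe sets on the log2(signal + 16) scale after quantile normalization, with Exp arrays on the left and Ctrl arrays on the right of each panel, each point an array with its number and the black bar the mean and SD of 4 arrays. Exp and Ctrl overlap in every panel, and Grik3 spreads widest, with an SD of 0.88 in Exp and 0.42 in Ctrl.

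**Figure D2:**
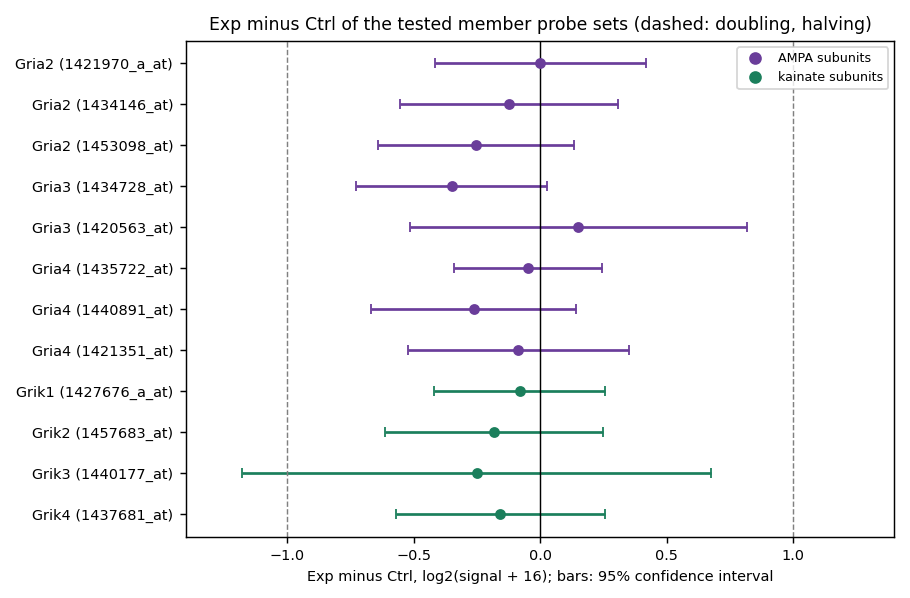
Exp minus Ctrl in log2 units for each tested probe set, with 95% confidence intervals from limma. All intervals include 0, and only that of Grik3, from -1.18 to 0.68, reaches past the dashed line at -1.

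Among AMPA subunits, Gria2 had 3 tested probe sets, which read different stretches of its transcripts and whose signals are not comparable with each other. The first, 1421970_a_at, had signals of 4933, 4200, 2883 and 4273 in Exp 1 to 4, against 5024, 3697, 4375 and 3301 in Ctrl 1 to 4. The highest and lowest Ctrl arrays bracketed all Exp arrays but Exp 3, which was the lowest of the 8. On the log2 scale it averaged 11.99 ± 0.31 in Exp and 11.99 ± 0.26 in Ctrl (SD, n = 4 each), a difference of 0.0006 (SE 0.18, 95% interval -0.42 to 0.42, limma unadjusted p = 0.997). The second, 1434146_at, gave 2943, 3199, 1728 and 2351 in Exp and 2911, 3262, 2292 and 2537 in Ctrl. Here Exp 3 again lay lowest, and the difference was -0.12 (SE 0.19). The third, 1453098_at, gave 2530, 1532, 1510 and 1953 in Exp and 1922, 2259, 2481 and 2124 in Ctrl. Exp 2 and Exp 3 were below all Ctrl arrays here, while Exp 1 had the highest signal of the 8, and the difference was -0.25 (SE 0.17, limma unadjusted p = 0.174).

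Gria4, whose subunit gives AMPA channels fast kinetics, was steadiest in its brightest probe set, 1435722_at. It read 3248, 3364, 2279 and 3172 in Exp and 2946, 3165, 3183 and 3153 in Ctrl. The 4 Ctrl arrays lay within a narrow band, with an SD of 0.068 log2 units, and the Exp SD of 0.24 came from Exp 3 alone lying below. The difference was -0.048 (SE 0.13, 95% interval -0.34 to 0.24). The 2 other probe sets of Gria4 lay near the limit for testing, with signals between 306 and 531 over all arrays. They differed by -0.26 (SE 0.18) for 1440891_at and by -0.086 (SE 0.19) for 1421351_at.

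Gria3 lies on the X chromosome and had the smallest p of the members. Its probe set 1434728_at read 481, 654, 386 and 434 in Exp, against 586, 669, 529 and 586 in Ctrl. Exp 1, Exp 3 and Exp 4 were below all Ctrl arrays, while Exp 2 was above 3 of them. It averaged 8.92 ± 0.31 in Exp and 9.27 ± 0.18 in Ctrl (SD, n = 4 each), a difference of -0.35 (SE 0.17, 95% interval -0.73 to 0.029, a fold of 0.785, limma unadjusted p = 0.0663, adjusted p = 0.999). The other probe set, 1420563_at, read 843, 565, 291 and 652 in Exp and 455, 606, 486 and 372 in Ctrl. It differed by 0.15 in the other direction (SE 0.29), with the highest and the lowest of the 8 values both in Exp, in Exp 1 and Exp 3. The difference between the 2 Gria3 probe sets was 0.19 ± 0.59 log2 units in Exp and -0.31 ± 0.25 in Ctrl (SD, n = 4 each). By an exact permutation test, two-sided, this gap of 0.50 gave p = 0.257 (adjusted p = 0.476 over the 5 pairs of probe sets compared in Gria2, Gria3 and Gria4). The other 4 pairs differed by -0.25 to -0.038, with exact permutation p between 0.257 and 0.971, and the smallest p that the 70 orders of the arrays allow is 0.0286.

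Gria1, an abundant AMPA subunit of the forebrain, was not tested, since both of its probe sets lay below the limit. Probe set 1435239_at read 338, 370, 158 and 319 in Exp, against 402, 494, 352 and 213 in Ctrl. Probe set 1448972_at read 115, 176, 35.9 and 164 in Exp and 294, 111, 88.2 and 146 in Ctrl. Exp 3 was the lowest of the 8 arrays in both. Fitted without the filter, they differed by -0.37 (SE 0.33) and -0.44 (SE 0.47), and the groups overlapped in each.

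Among kainate subunits, Grik1 was measured by 1427676_a_at with signals of 1596, 1925, 1671 and 1906 in Exp, against 1866, 2416, 1717 and 1561 in Ctrl. Ctrl 2 stood highest and Ctrl 4 lowest in signal, and the Exp signals all lay between them. The difference was -0.081 (SE 0.15, 95% interval -0.42 to 0.26). A further Grik1 probe set, 1439987_at, was below the limit and varied from 21.4 to 409 in Exp and from 19.1 to 174 in Ctrl.

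Grik2 had 1 tested probe set, 1457683_at, with signals of 756, 864, 515 and 549 in Exp and 787, 881, 631 and 618 in Ctrl. Arrays 1 and 2 were the higher pair in both groups, arrays 3 and 4 the lower. The difference of -0.18 log2 units (SE 0.19) was smaller than this spread within groups, an SD of 0.33 in Exp and 0.26 in Ctrl.

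Grik3 showed the same division more widely. Its probe set 1440177_at read 1033, 946, 314 and 349 in Exp, against 792, 891, 469 and 557 in Ctrl. Its residual SD of 0.69 log2 units was the largest among the tested members, whose median was 0.28, against a median of 0.23 over all tested probe sets. The difference was -0.25 (SE 0.41, 95% interval -1.18 to 0.68), too imprecise to exclude a halving.

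Grik4 ran the opposite way. Probe set 1437681_at read 662, 570, 923 and 924 in Exp and 806, 708, 925 and 849 in Ctrl, with arrays 1 and 2 the lower pair in both groups. It differed by -0.16 (SE 0.18, 95% interval -0.57 to 0.26).

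Grik5, the other subunit that needs a partner, had 1 probe set below the limit, 1418784_at, with signals of 250, 116, 130 and 322 in Exp, against 394, 54.0, 272 and 94.7 in Ctrl. Its values scattered as widely within as between groups. The remaining probe sets of Grik2 (1425790_a_at) and Grik3 (1427709_at) read 15.9 to 48.8 and 20.5 to 78.0 in Exp and 15.1 to 28.2 and 14.6 to 48.8 in Ctrl, near the pseudocount of 16, and carry no usable level.

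Several members varied together from array to array. Correlations were taken over the 8 arrays after subtracting each group's mean, and are given as a description of arrays that share their normalization. Grik3 correlated with Grik2 at r = 0.92 (rho = 0.88), with Gria2 probe set 1434146_at at r = 0.90 (rho = 0.86) and with Gria3 probe set 1434728_at at r = 0.77 (rho = 0.81). Among all tested probe sets, 0.359%, 0.662% and 3.32% correlated with Grik3 at least as closely as these 3. With Grik4 the correlation was negative, at r = -0.96 (rho = -0.98), and 0.115% of all tested probe sets reached that value or lower. The other Gria2 probe sets followed Grik3 less closely, 1421970_a_at at r = 0.43 (18.8% of all tested probe sets as close) and 1453098_at at r = 0.14 (39.1%), so that the likeness of Gria2 rests on 1 of its 3 probe sets. The other Gria3 probe set, 1420563_at, had r = 0.61 with Grik3 (8.95% as close), and Grik1 had r = 0.14 (38.9%). Gria4 had r = 0.49 (15.6%) for 1435722_at, -0.095 for 1440891_at and -0.16 for 1421351_at. Of all tested probe sets, 43.3% and 38.7% reached these last values or lower. Grik3 was taken as the reference, and the partners named first are its closest among the tested members. Their shares therefore describe picked pairs. In each of Grik2, Grik3 and Gria2 1434146_at, arrays 1 and 2 of both groups lay above arrays 3 and 4 of both groups. In Grik4 arrays 1 and 2 lay below arrays 3 and 4. This division was not particular to the members. Among the marker genes, Avil also lay higher in arrays 1 and 2 of both groups, and Prrxl1, Ntrk2 and Slc18a2 lay lower. The share of all tested probe sets divided in this way was not counted. Over all tested probe sets the deviations of arrays with the same number correlated between -0.12 and 0.050. This measure cannot exclude a division of the arrays by number in a part of the probe sets.

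The promoters of Grik2, Grik3 and Grik4, and of Gria2, which varied with them in 1 of 3 probe sets, were taken from the RefSeq promoter table (GRCm38.p6, 250 bases before to 50 after the annotated start, read along the gene's strand) to compare their base composition and motifs. Of the 9 members, 6 are in that table. Capitals mark a match, on either strand, to the GC box GGGCGG or to the core of the RE1 element, the site of the neuronal gene repressor REST. Gria2 lies on chromosome 3 (chr3:80802786-80803085, minus strand), Grik2 on 10 (chr10:49788705-49789004, minus), Grik3 on 4 (chr4:125490446-125490745, plus) and Grik4 on 9 (chr9:42944322-42944621, minus).
Gria2: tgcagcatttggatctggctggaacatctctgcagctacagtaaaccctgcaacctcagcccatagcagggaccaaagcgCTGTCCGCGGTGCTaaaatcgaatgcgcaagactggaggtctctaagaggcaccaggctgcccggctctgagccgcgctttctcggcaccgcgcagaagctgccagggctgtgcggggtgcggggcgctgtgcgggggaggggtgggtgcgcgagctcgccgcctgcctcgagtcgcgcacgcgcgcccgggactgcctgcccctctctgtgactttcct
Grik2: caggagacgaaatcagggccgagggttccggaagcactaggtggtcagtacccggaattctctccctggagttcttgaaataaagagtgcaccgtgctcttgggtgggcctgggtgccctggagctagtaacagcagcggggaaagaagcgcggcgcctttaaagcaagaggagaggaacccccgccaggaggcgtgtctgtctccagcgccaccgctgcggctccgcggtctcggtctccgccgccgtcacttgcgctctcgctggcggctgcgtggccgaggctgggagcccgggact
Grik3: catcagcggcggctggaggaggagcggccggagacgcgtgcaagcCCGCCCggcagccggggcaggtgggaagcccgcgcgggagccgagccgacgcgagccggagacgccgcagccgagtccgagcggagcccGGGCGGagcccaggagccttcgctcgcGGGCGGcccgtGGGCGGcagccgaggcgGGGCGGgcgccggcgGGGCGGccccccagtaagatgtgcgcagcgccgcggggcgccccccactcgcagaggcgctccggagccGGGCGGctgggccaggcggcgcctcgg
Grik4: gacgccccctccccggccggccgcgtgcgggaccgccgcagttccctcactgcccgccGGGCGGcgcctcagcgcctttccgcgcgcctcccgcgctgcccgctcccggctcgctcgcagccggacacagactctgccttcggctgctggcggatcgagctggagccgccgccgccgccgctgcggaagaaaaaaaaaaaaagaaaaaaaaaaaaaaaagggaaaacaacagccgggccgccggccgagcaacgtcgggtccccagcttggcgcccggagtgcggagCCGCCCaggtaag

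The Gria2 window held 1 RE1 core, on the strand opposite to the gene, which 17 of 32851 promoters of the same length (0.0517%) share. The Grik3 window held 7 GC boxes and that of Grik4 held 2, while those of Gria2 and Grik2 held 0, and 35.7% of all promoters hold at least 1. The GC content was 65.7% for Gria2, 64.7% for Grik2, 82% for Grik3 and 70% for Grik4. TATAAA, present in 13.6% of all promoters, and the cAMP response element TGACGTCA, in 1.79%, were found in 0 of the 6 members' windows. None of these 4 motifs was found in all 4 windows printed. A match is a description of the letters and not a binding site.

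On the normalized log2 scale, Exp 3 was the lowest of the 8 arrays in 7 of the 12 tested member probe sets, while it was lowest in 13.6% of all tested probe sets. By deposited signal the count was 9 of 12, with Gria2 1453098_at and Grik2 added, against 15.3% of all. The 7 were 2 probe sets each of Gria2, Gria3 and Gria4 and that of Grik3. Skeletal muscle markers were highest in the same array. Of 13 tested muscle genes 12 were higher on average in Exp, none of them called, and the list's mean deviation ran from -0.66 to 1.54 in Exp, with 1.54 in Exp 3, and from -0.49 to -0.17 in Ctrl. None of the list's probe sets was at 0 on any array. Epithelial and keratinocyte markers, with 5 of 6 tested genes higher on average in Exp and none called, ran from -0.39 to 0.54 in Exp, with 0.54 in Exp 2 and 0.53 in Exp 3, and from -0.21 to -0.11 in Ctrl. Schwann cell and myelin markers had 8 of 9 tested genes lower on average in Exp, none called. Their mean was lowest in Exp 3, at -0.59, a value carried largely by Egr2, a transcription factor of myelination. Over the 8 other genes of that list the mean was -0.28 in Exp 3 and -0.24 in Exp 1, the other Exp arrays lay at 0.10 and 0.056, and Ctrl lay between 0.031 and 0.18. Sensory neuron markers were at 0.060 in Exp 3, the highest of the Exp arrays, which ran from -0.059, and Ctrl ran from -0.086 to 0.084. The part of muscle, epithelium or glia in the member values was not tested. Without Exp 3 the differences became 0.15 for Gria2 1421970_a_at, 0.035 for Gria2 1434146_at, 0.068 for Gria4 1435722_at, 0.43 for Gria3 1420563_at and 0.0082 for Grik3, of which Gria2 1434146_at, Gria4 1435722_at and Grik3 had been negative. The other 7 stayed negative without Exp 3, at -0.27 for Gria3 1434728_at, -0.20 for Gria4 1440891_at, -0.18 for Gria2 1453098_at, -0.25 for Gria4 1421351_at, -0.076 for Grik1, -0.096 for Grik2 and -0.28 for Grik4. The ratio of 3' to 5' signal of the actin control, a measure of RNA integrity and labelling, was 4.55 ± 0.12 log2 units in Exp and 4.36 ± 0.068 in Ctrl (SD, n = 4 each, exact permutation p = 0.0571). That of the Gapdh control was 4.14 ± 0.039 in Exp and 4.19 ± 0.23 in Ctrl, a difference of -0.052 in the other direction (exact permutation p = 0.743). Both controls gave far more 3' than 5' signal on every array, at 4.31 to 4.67 log2 units for actin and 3.87 to 4.37 for Gapdh. All levels given here, those below the limit included, were read under this 3' bias. The part of RNA quality in the member values was not tested.

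**Figure D3:**
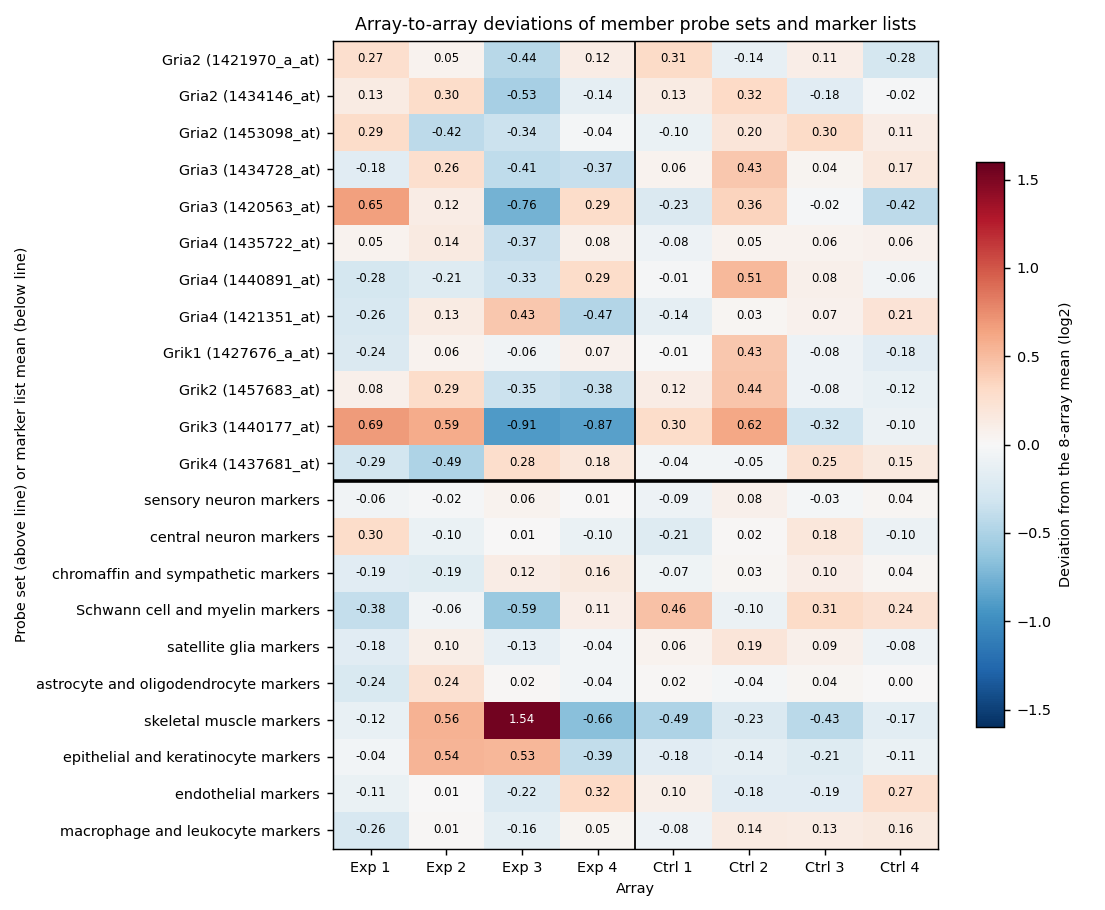
Deviation of each tested member probe set (above the line) and of each marker list's mean (below it) from its mean over the 8 arrays, in log2 units, with Exp arrays left of Ctrl arrays. Exp 3 is blue in most AMPA rows and red, at 1.54, for muscle, and the Grik2, Grik3 and Grik4 rows change between arrays 2 and 3 in both groups.

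By the rule for likeness, the genes whose deviations followed the brightest AMPA and kainate probe sets most closely over the 8 arrays were sought among 12756 other genes. For Gria2 1421970_a_at they were Cspp1, a centrosomal protein gene, at r = 0.98 (rho = 0.90), 2610020C07Rik at r = 0.98 (rho = 0.98) and the immunoglobulin gene Ighg3 at r = 0.97 (rho = 0.98). For Grik1 1427676_a_at they were Fbxo4, an F-box protein gene, at r = 0.98 (rho = 0.95), Sh3pxd2a, a scaffold gene of invadopodia, at r = 0.98 (rho = 0.95) and Zfp280b at r = 0.96 (rho = 0.95). These are the best of a search over many genes with few arrays, and are given as a description.

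Genes that act with these receptors were read from 6 lists holding 73 genes, of which 51 were tested, each by its brightest probe set. None passed the 5% false discovery rate, where 0.00784% of the 12763 genes tested did. At an unadjusted p below 0.05 there were 5 of 51, 2 higher and 3 lower in Exp, against 3.73% of all genes, 1.47% higher and 2.26% lower. The difference was negative in 30 of 51, against 54.8% of all genes. The median difference of the 51 was -0.029 log2 units, against -0.015 over all genes.

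Auxiliary subunits, which set the gating and surface delivery of AMPA and kainate channels, had 5 of 14 genes higher and 9 lower in Exp, with a median of -0.20 log2 units and 0 called. Leaving out 1 array gave medians of -0.25 to -0.096, the value nearest 0 without Exp 3 and the next, -0.10, without Exp 4. Gsg1l, an auxiliary protein of AMPA receptors, averaged 11.75 ± 0.21 in Exp and 12.07 ± 0.12 in Ctrl, a difference of -0.32 (SE 0.13, limma unadjusted p = 0.0341, adjusted p = 0.999). Abhd6, a hydrolase that also binds AMPA subunits, differed by -0.28 (SE 0.11, limma unadjusted p = 0.0293). In both genes Exp and Ctrl overlapped. Trafficking and scaffold genes had 9 of 17 higher, with a median of 0.0007. Grip2, a PDZ scaffold that binds AMPA subunits, had all 4 Exp arrays above all 4 Ctrl arrays, with means of 9.61 ± 0.036 in Exp and 8.94 ± 0.40 in Ctrl (SD, n = 4 each). Such a separation was found in 1 of the 51 genes and in 2.25% of all genes. The Grip2 difference of 0.67 (SE 0.18, a fold of 1.59, limma unadjusted p = 0.00507) did not pass (adjusted p = 0.999). Epb41l1, a cytoskeletal linker of AMPA subunits, differed by -0.26 (SE 0.13).

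On the RNA editing list, Adar differed by 0.11 (SE 0.093) and Adarb2 by -0.34 (SE 0.73), the Adarb2 values ranging over 3.63 log2 units. Adarb1 lay below the limit for testing, with signals of 295, 191, 469 and 391 in Exp, against 170, 286, 241 and 297 in Ctrl, and editing of Gria2 is not read by these arrays. NMDA and delta subunits had 2 of 5 higher, with Grin2d at -0.44 (SE 0.17, limma unadjusted p = 0.0322) and Grin3a at 0.31 (SE 0.13, limma unadjusted p = 0.0456). Grin1 was not analysed here. Metabotropic receptors had 2 of 4 higher, with Grm3 at 0.32 (SE 0.24, 0.088 without Exp 3) and Grm4 at 0.16 (SE 0.18). Genes of glutamate supply and uptake had 2 of 9 higher, with a median of -0.072. The vesicular transporter Slc17a6, which marks glutamatergic neurons, averaged 14.06 ± 0.091 in Exp and 13.96 ± 0.028 in Ctrl, a difference of 0.093 (SE 0.089). Slc1a3, the glutamate transporter of glia, differed by -0.50 (SE 0.26), and by -0.26 without Exp 1. The mean of the satellite glia markers, of which it is one, ran from -0.18 to 0.096 in Exp and from -0.078 to 0.19 in Ctrl, and the part of glia in this value was not tested.

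**Figure D4:**
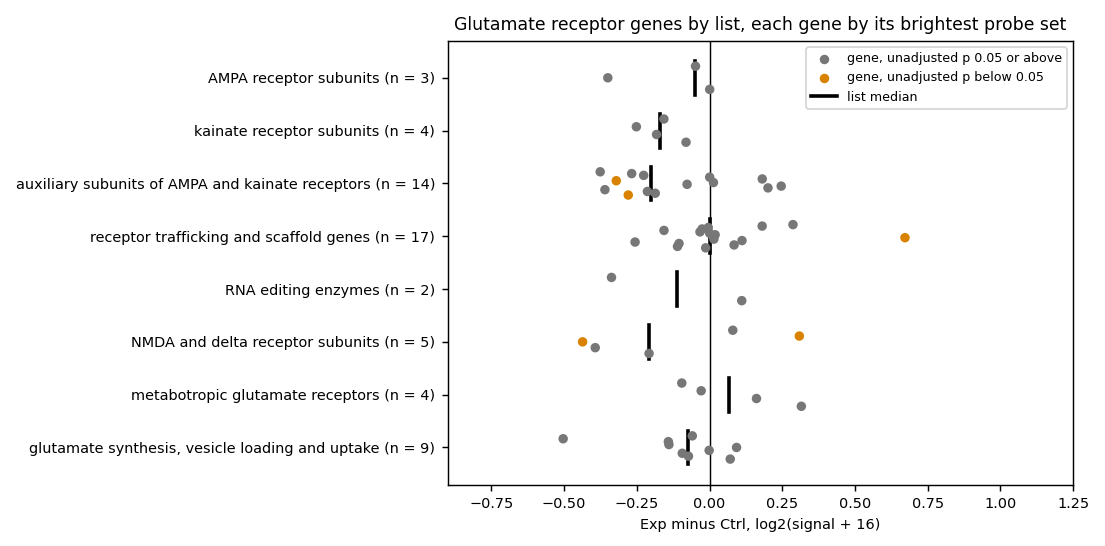
Exp minus Ctrl in log2 units for the tested genes of each list, each point a gene by its brightest probe set and each black bar the list's median. The 5 orange genes have an unadjusted p below 0.05, Grip2 at 0.67 lies farthest right, and none passed the adjusted test.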

How the data were processed

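Total RNA on 8 arrays was read as the probe set intensity values deposited by the authors, on a linear scale. The sources used here do not name the software or the summary method. Every array had the same mean of 2500 after trimming 2% of probe sets at each end, as global scaling gives, so differences are relative to the bulk of probe sets. Values were taken as log2(signal + 16), which compresses low signals, and quantile normalized, since array medians differed by 0.203. The 64 control probe sets and those with a mean below the 40th percentile were left out, and limma 3.58.1 in R 4.3.3 (lmFit, eBayes, two-sided) was fitted over 27022 probe sets with Benjamini-Hochberg adjustment at 5%. The limma procedure was tested on simulated data. A fold is that of signal + 16.

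Names came from the platform annotation, updated by Entrez identifier through RefSeq (GRCm38.p6, 34741 of 34945 singly named probe sets matched). Groups and numbers came from the titles. Members, lists and named genes were chosen with earlier results of these data known. Named genes were all members, the 2 smallest p per list, every measured gene of a list of up to 5, Slc17a6 and Adarb1. The 3 closest correlates were named too, and Grin1 was chosen but not analysed. Alternatives were pseudocounts of 1 and 64, no filter or the 60th percentile, deposited or median-centred values, a replicate block and trend and robust options. Others were array weights, Eif2s3y as a covariate for sex, a gene's mean over probe sets, and leaving out each array. The fit without a filter also used no pseudocount, and that at the 60th percentile used a pseudocount of 60. Over all tested probe sets same-numbered arrays deviated with correlations of 0.016, 0.050, -0.074 and -0.12, so the numbers were not taken as pairs. A division by number in a part of the probe sets is not excluded by this. Figures used matplotlib 3.10.9.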

Additional observations from a re-analysis of the deposited data

Results flagged for a closer look

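In each group of 4 arrays, member probe sets, named genes and list means were searched for a highest or lowest array set far apart from the other 3, by Dixon's test at the 95% level. Of 98 groups searched, 5 held one, and chance alone gives about 1 in 20, or 4.9. For Gria4 1435722_at, Exp 3 lay apart at 11.21 (the other Exp arrays 11.63 to 11.72) and Ctrl 1 at 11.50 (the other Ctrl arrays 11.63 to 11.64). For the scaffold gene Grip2, Ctrl 2 lay apart at 9.53, with the other Ctrl arrays between 8.67 and 8.80. In the mean of the auxiliary subunits, Exp 1 lay apart at 0.165, with the other Exp arrays between -0.16 and -0.11. In the mean of the macrophage and leukocyte markers, Ctrl 1 lay apart at -0.0755, with the others between 0.13 and 0.16.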

How the results depend on the processing

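No member probe set was called under any of the 18 alternatives run on the member fit, including the one without a filter, which tested all 18. The fits without a filter and at the 60th percentile also changed the pseudocount, and do not show the effect of the filter alone. Of 209 repeated member differences 194 kept their direction and 15 turned, and all stayed short of the threshold. Of 215 repeats for named pathway genes 1 turned, Adarb2 without Exp 2. Gria2 1421970_a_at, at 0.0006, was -0.018 in values as deposited, -0.067 centred on medians and -0.032 with the Eif2s3y covariate, and Grik3 was 0.017 with array weights. Gria4 1421351_at minus 1435722_at was 0.036 in values as deposited and centred on medians. Leaving out 1 array gave -0.093 to 0.15 for Gria2 1421970_a_at, -0.24 to 0.035 for Gria2 1434146_at, -0.041 to 0.43 for Gria3 1420563_at, -0.10 to 0.068 for Gria4 1435722_at, -0.25 to 0.057 for Gria4 1421351_at, -0.15 to 0.050 for Grik1, -0.52 to 0.0082 for Grik3 and -0.72 to 0.48 for Adarb2. It gave -0.24 to 0.010 for Gria2 1434146_at minus 1421970_a_at and -0.31 to 0.14 for Gria4 1421351_at minus 1435722_at. Members with an unadjusted p below 0.05 numbered 0 to 1 without 1 array (Gria2 1453098_at without Exp 1, Gria3 1434728_at without Exp 2 and Gria4 1440891_at without Exp 4), and members whose groups did not overlap 0 to 1. With the replicate block, for numbers not shown to pair the arrays, it was 1, Gria3 1434728_at (-0.35, SE 0.12, limma unadjusted p = 0.0249, adjusted p = 0.9995). Pathway genes with an unadjusted p below 0.05 numbered 3 without a filter or pseudocount, 3 with the covariate, and 1 to 5 without 1 array. The median of NMDA and delta subunits was 0.0076 without a filter or pseudocount. At the 60th percentile, with a pseudocount of 60, the median was -0.060. It was 0.017 with each gene's probe sets averaged and -0.34 to -0.15 without 1 array. Without 1 array the median of metabotropic receptors was 0.0076 to 0.23, of auxiliary subunits -0.25 to -0.096 and of scaffold genes -0.025 to 0.050. That of the RNA editing list was -0.32 to 0.32 without 1 array, and that of supply and uptake genes -0.096 to -0.044. Grm3 was then 0.088 to 0.49, Grm4 0.017 to 0.28 and Slc1a3 -0.69 to -0.26. The cause of these shifts was not tested. The 1 probe set called over the whole table was lost with the block, with the covariate and in 7 of the 8 fits without 1 array. It was also lost without a filter and at the 60th percentile, where the pseudocount differed too. With 4 arrays a group, Grik3 (SE 0.41) and Gria3 1420563_at (SE 0.29) are the least precise tested members.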

Other observations

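Hbb-bh1, an embryonic globin gene chosen after its values were seen, had a probe set below the limit for testing, 1450736_a_at, that divided the arrays as Grik4 did. Its signals were 124, 100.3, 586 and 297 in Exp, against 54.9, 56.0, 363 and 419 in Ctrl, with arrays 3 and 4 of both groups above arrays 1 and 2 of both groups. Its other probe sets did not divide the arrays in this way, and the share of all probe sets that did was not counted. In 1437810_a_at all Exp arrays lay below all Ctrl arrays (-0.88, SE 0.225, fitted without the filter), and it was not called (limma adjusted p = 0.986). Such a separation, in either direction, was found in 2.34% of all tested probe sets. In the same fit 1437990_x_at differed by -0.72 (SE 0.43) and 1450736_a_at by 0.435 (SE 0.82), the other direction. Probe set 1437810_a_at read 667, 692, 796 and 691 in Exp and 1034, 1088, 1234 and 1980 in Ctrl, and 1437990_x_at read 893, 906, 1362 and 733 in Exp and 766, 1193, 2117 and 2919 in Ctrl.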
